A study of Homo sapiens with 6 samples.

Results

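The AP-1 and immediate early factors are 10 genes (FOS, FOSB, FOSL1, FOSL2, JUN, JUNB, JUND, EGR1, IER2 and IER3) out of 11963 measured genes. They were chosen by name, with earlier results of these data known. Every one of the 18 probe sets annotated to them was taken, out of 22215 probe sets other than controls. A probe set is a group of short oligonucleotides on the array that together measure 1 transcript region. RNA was measured on 6 Affymetrix arrays, 3 from each of a pair of human cell lines of invasive lobular breast carcinoma, labelled positive for both the estrogen receptor and the progesterone receptor. SUM44 carries the label tamoxifen sensitive, and its cultures received 500 nM 4-hydroxytamoxifen (4HT), the active form of that drug, for 24 hours. LCCTam, known as a tamoxifen-selected derivative of SUM44, is labelled resistant, and its cultures were held for 14 days with no 4HT. Line and drug exposure therefore differ together and cannot be told apart, and both lines stand for 1 tumour. The arrays are labelled biological replicates. The labels do not say how the cultures were separated, so p-values measure the spread between these arrays, which may be technical.

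AP-1 is a dimer of a JUN protein with a FOS, JUN or related leucine zipper protein, and binds short sites that control genes of growth, stress and invasion. Transcripts of several subunits, such as FOS, FOSB, JUN and JUNB, and of the zinc finger factor EGR1 and the small proteins IER2 and IER3 are immediate early: they rise within minutes of a growth factor or stress signal, without new protein synthesis, and most decay quickly. JUND is more constitutive, and FOSL1 and FOSL2 are induced later. In breast epithelium AP-1 also works with the estrogen receptor, which can be recruited to AP-1 sites and act there under tamoxifen. Levels below are log2 expression values, in which a step of 1 is a doubling, and differences are LCCTam minus SUM44.

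The members moved in both directions. JUNB, JUND, JUN and IER2 were higher in LCCTam, IER3, FOSL2 and EGR1 were lower, and FOS, FOSB and FOSL1 did not pass the test. So 7 of 10 members were called by limma's moderated test (adjusted p under 0.05), where 15.8% of all genes were. By direction, 4 were higher, against 9.18% of all genes, and 3 lower, against 6.6%. The largest difference was 1.9-fold, for IER2, so these are shifts of modest size: 260 genes, 2.17% of all, were higher by more than IER2. The groups did not overlap for 8 of 10 members, against 35.4% of all genes. The median difference of the members was 0.27, and that of all genes 0.08. Because earlier results were known when the members were chosen, the choice may have favoured genes that differ. No excess over all genes is therefore inferred from these shares.

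**Figure D1:**
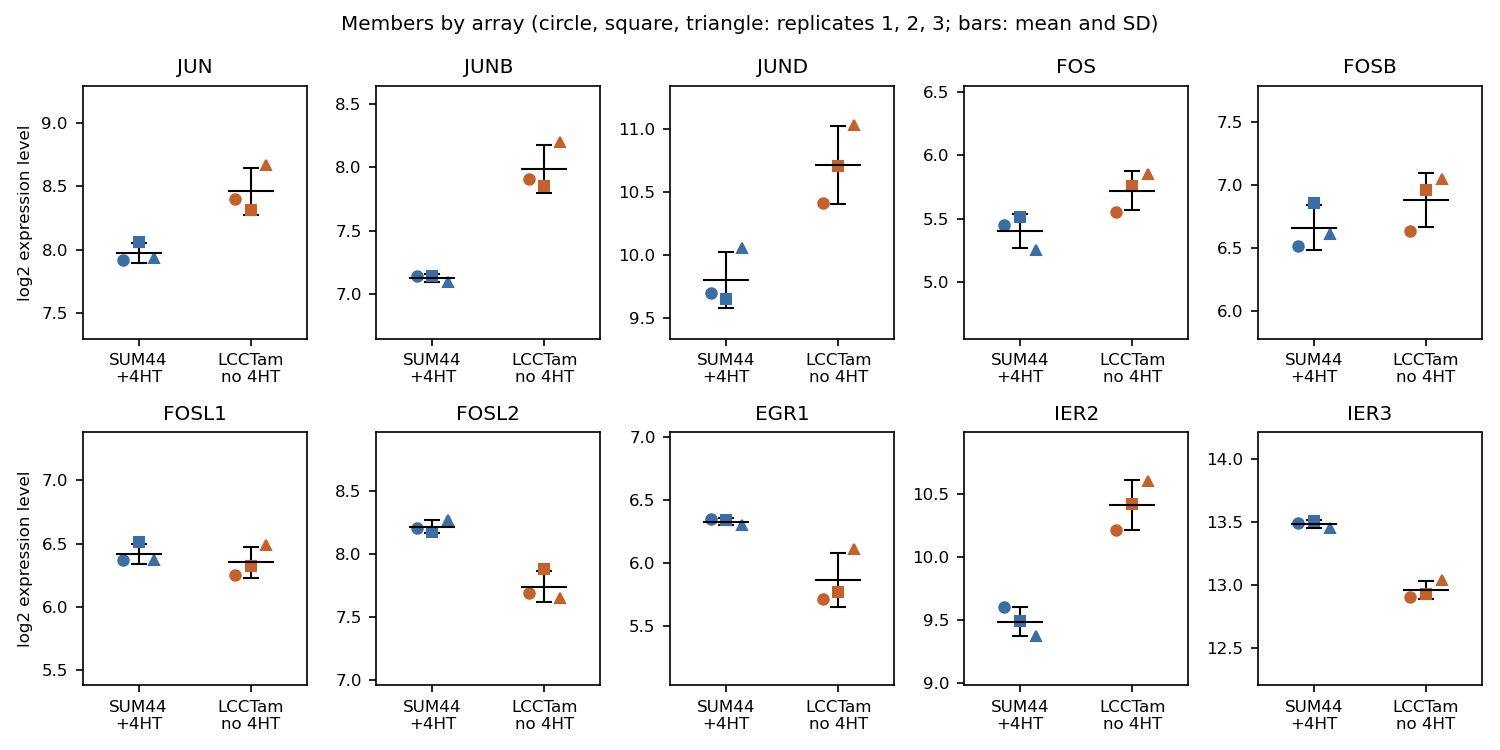
Log2 expression level of each member's brightest probe set in the 3 SUM44 arrays with 4HT (blue) and the 3 LCCTam arrays without it (orange), with group mean and SD; each panel spans 2 log2 units. JUN, JUNB, JUND and IER2 lie higher in every LCCTam array, FOSL2, EGR1 and IER3 lower, and the groups overlap for FOSB and FOSL1.

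The lines were checked against their labels, and the arrays against each other. Of 10 markers of luminal breast cells, 8 lay above the median of gene means (7.11) in every array. PGR, the progesterone receptor, lay between 3.89 and 4.34, below the lower quartile of gene means (5.93), although both lines are labelled positive for it. CDH1, the E-cadherin gene whose loss marks lobular carcinoma, lay between 6.35 and 7.17. Averaged over a list, markers of basal, fibroblast, endothelial and white blood cells stayed between 5.34 and 6.15 in all arrays, and no gene of these lists was called. Gene by gene, 5 of 6 fibroblast and 4 of 5 white blood cell markers lay below the median of gene means in every array. The exceptions were COL1A1 (7.77 to 8.18) and CD3D (7.03 to 7.43). The 3 endothelial markers and KRT5 and KRT14, the 2 basal markers measured, lay below it in every array. Of the 10 luminal markers 6 were called: MUC1 (5.46-fold), ESR1 (2.64-fold), KRT8 (2.13-fold), KRT19 (1.61-fold) and KRT18 (1.33-fold) were lower in LCCTam and GATA3 (2.16-fold) was higher. ESR1, the estrogen receptor gene, was at 11.42 to 11.73 in SUM44 and 9.65 to 10.71 in LCCTam. Correlations over genes were 0.994 to 0.995 within SUM44 and 0.958 to 0.987 within LCCTam, where replicates 1 and 3 lay farthest apart. With the SUM44 arrays, LCCTam replicates 1, 2 and 3 correlated at 0.972 to 0.974, 0.951 to 0.964 and 0.923 to 0.941. LCCTam replicate 1 was thus closer to the SUM44 arrays than to LCCTam replicate 3 (0.958).

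The JUN proteins are the obligate core of AP-1. JUNB, which tends to restrain JUN and to oppose cell cycle entry, was at 7.14, 7.14 and 7.09 in SUM44 replicates 1, 2 and 3 and at 7.91, 7.85 and 8.20 in LCCTam replicates 1, 2 and 3. The SUM44 arrays lay within 0.05 of each other, and every LCCTam array stood clear of them. Its difference was 0.87 ± 0.12 (SE; 95% interval 0.58 to 1.15), 1.82-fold, with adjusted p = 0.0039 in limma. JUND, the most constitutive JUN protein, was at 9.70, 9.65 and 10.06 in SUM44 and 10.41, 10.71 and 11.03 in LCCTam. Again all LCCTam arrays were above all SUM44 arrays. The difference was 0.92 ± 0.19 (SE), 1.89-fold (limma adjusted p = 0.0164). Its other probe sets gave 0.86 and 0.88 (adjusted p = 0.0153 and 0.00542 among all probe sets, of which 13.5% were called), so all 3 probe sets of JUND placed it higher by nearly the same amount. These other 2 are of a type marked as able to bind related transcripts. JUND was no longer called once SUM44 replicate 1 (adjusted p = 0.0777), SUM44 replicate 2 (0.0718) or LCCTam replicate 2 (0.0725) was left out, whereas JUNB was called in every alternative run (highest adjusted p 0.0279).

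The promoters of JUNB and JUND are shown because these are the 2 JUN genes with the larger differences. They run for 210 bases up to the start site, from RefSeq on GRCh38.p14, and capitals mark TGACG on either strand, the core of the cyclic AMP response element (CRE) to which ATF, CREB and JUN dimers with ATF bind. JUNB lies on the plus strand at chr19:12791276-12791485 and JUND on the minus strand at chr19:18281623-18281832.
JUNB: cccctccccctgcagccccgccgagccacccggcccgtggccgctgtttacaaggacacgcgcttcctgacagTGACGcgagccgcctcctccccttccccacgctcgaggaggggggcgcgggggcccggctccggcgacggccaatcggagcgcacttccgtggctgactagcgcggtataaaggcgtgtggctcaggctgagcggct
JUND: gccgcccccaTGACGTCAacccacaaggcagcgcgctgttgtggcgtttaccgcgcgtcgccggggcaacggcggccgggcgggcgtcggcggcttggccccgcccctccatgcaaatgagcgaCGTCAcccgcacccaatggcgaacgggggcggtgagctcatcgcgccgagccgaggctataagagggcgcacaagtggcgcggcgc
The JUND promoter holds the full palindrome TGACGTCA, with its first base 200 bases upstream of the start site, and a further core 86 bases upstream. JUNB holds 1 core, 137 bases upstream, and a TATAAA box 31 bases upstream.

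JUN, the founding member and the strongest activator of the family, gave a less certain result. Its brightest probe set was at 7.92, 8.06 and 7.93 in SUM44 and 8.40, 8.31 and 8.67 in LCCTam, without overlap. The difference was 0.49 ± 0.12 (SE), 1.41-fold (limma adjusted p = 0.0369). The 3 dimmer probe sets of JUN gave 0.22, 0.10 and 0.06 (adjusted p = 0.236, 0.617 and 0.788), and the brightest is of that same type. With the mean of the 4 probe sets the difference was 0.22 and was not called (adjusted p = 0.144). It was also lost after cyclic loess (0.0604), and without SUM44 replicate 1 (0.141), 2 (0.087) or 3 (0.139) or LCCTam replicate 2 (0.0724) or 3 (0.0517).

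**Figure D2:**
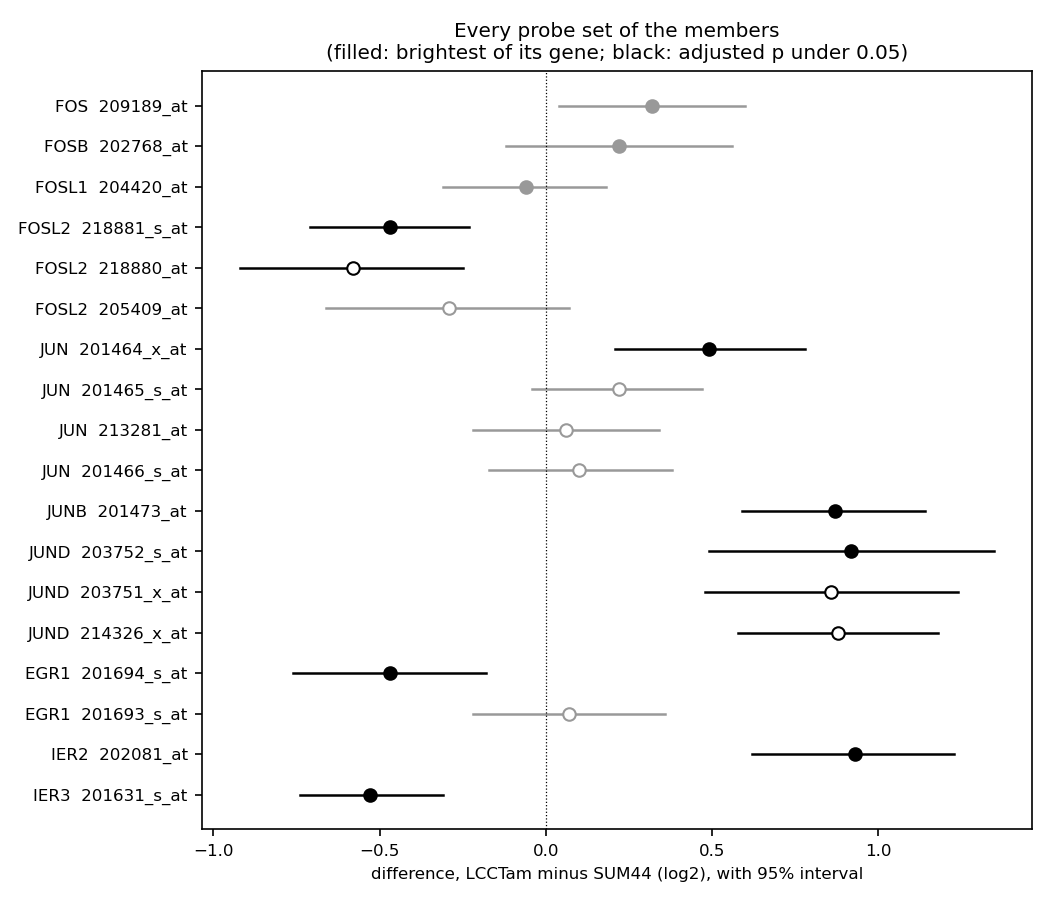
Difference of each of the 18 probe sets, LCCTam minus SUM44 on the log2 scale, with its 95% interval; filled points are the brightest probe set of a gene and black marks an adjusted p under 0.05 among all probe sets. The 3 probe sets of JUND lie between 0.86 and 0.92, those of FOSL2 all lie below 0, and 1 of 4 for JUN and 1 of 2 for EGR1 passed the test.

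FOS proteins join AP-1 only as partners of a JUN protein. Of the 4 FOS genes, FOSL2 passed the test, and no test compared FOS genes with JUN genes. FOS, the prototype immediate early gene, lay at 5.45, 5.51 and 5.25 in SUM44 and 5.55, 5.76 and 5.85 in LCCTam. The groups did not overlap, but the signal was dim, under the 5.93 that marks the lower quartile of genes, and no detection call was used here to tell it from background. Its difference of 0.32 ± 0.12 (SE) did not pass the test (limma adjusted p = 0.127), although it did without LCCTam replicate 1 (0.40, adjusted p = 0.0321) and with array weights (0.36, adjusted p = 0.00127). Those runs called 4241 and 7021 of all 11963 genes, against 1888 with all arrays and no weights. FOSB, a close relative of FOS, was at 6.52, 6.86 and 6.61 in SUM44 and 6.64, 6.96 and 7.05 in LCCTam, and the groups overlapped. Its difference was 0.22 (95% interval -0.13 to 0.56, limma adjusted p = 0.359), and it was called only with array weights (adjusted p = 0.00824). FOSL1 (FRA1), the FOS protein linked to invasive, estrogen receptor negative breast cancer, was at 6.37, 6.51 and 6.37 in SUM44 and 6.25, 6.32 and 6.49 in LCCTam. The ranges were almost the same, and the difference was -0.06 (95% interval -0.32 to 0.19, limma adjusted p = 0.732).

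FOSL2 (FRA2), which like FOSL1 lacks the strong activation domain of FOS, was lower in LCCTam. It was at 8.20, 8.17 and 8.27 in SUM44 and 7.69, 7.88 and 7.65 in LCCTam, with no overlap. The difference was -0.47 ± 0.11 (SE), 1.39-fold (limma adjusted p = 0.0252). Its other probe sets gave -0.58 (adjusted p = 0.0374) and -0.29 (adjusted p = 0.268, with overlap), so all 3 had the same sign. Without SUM44 replicate 1, 2 or 3 or LCCTam replicate 2 the adjusted p was 0.0957, 0.0817, 0.113 and 0.0506. The FOSL2 promoter on the plus strand at chr2:28392648-28392857 is shown as that of the FOS gene whose level differed, marked in the same way.
FOSL2: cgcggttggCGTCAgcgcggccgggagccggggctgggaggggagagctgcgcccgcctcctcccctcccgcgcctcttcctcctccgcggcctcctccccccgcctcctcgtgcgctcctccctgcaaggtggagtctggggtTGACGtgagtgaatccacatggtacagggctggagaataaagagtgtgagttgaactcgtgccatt
It carries CRE cores 201 and 66 bases upstream. The AP-1 site TGACTCA lies just past the shown stretch, at bases 5 to 11 counted from the start site as 1.

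EGR1, a zinc finger factor switched on by ERK through serum response factor, was at 6.35, 6.34 and 6.30 in SUM44 and 5.72, 5.77 and 6.11 in LCCTam. All LCCTam arrays were below all SUM44 arrays at a dim level. The difference was -0.47 ± 0.13 (SE), 1.38-fold, close to the threshold (limma adjusted p = 0.0461). The other probe set of EGR1 was at 5.84, 6.14 and 6.0 in SUM44 and 5.90, 6.15 and 6.14 in LCCTam, and did not differ by more than its spread (0.07, adjusted p = 0.752). With the mean of both, EGR1 was not called (-0.20, adjusted p = 0.269), nor without SUM44 replicate 1 (0.155), 2 (0.139) or 3 (0.139) or LCCTam replicate 2 (0.174). Its promoter lies on the plus strand at chr5:138465269-138465478. It is shown because, of the 8 members' promoters searched, it alone had a CArG box, the site of serum response factor. That search ran from 250 bases before to 50 after the start site, and sites farther upstream were not searched. Capitals mark the CArG boxes and the CRE cores.
EGR1: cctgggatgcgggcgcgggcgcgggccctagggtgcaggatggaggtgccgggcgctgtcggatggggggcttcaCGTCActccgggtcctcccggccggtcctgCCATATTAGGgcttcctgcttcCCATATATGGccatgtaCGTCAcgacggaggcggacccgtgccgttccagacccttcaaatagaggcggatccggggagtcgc
It held 2 CArG boxes, beginning 105 and 83 bases upstream, between CRE cores at 135 and 66 bases.

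IER2 and IER3 are immediate early genes like several of the AP-1 genes, but belong to neither the FOS nor the JUN family. IER2, a nuclear protein linked to cell motility, was at 9.60, 9.49 and 9.37 in SUM44 and 10.21, 10.42 and 10.60 in LCCTam. The lowest LCCTam array exceeded the highest SUM44 array by a wide gap. The difference was 0.93 ± 0.13 (SE; 95% interval 0.62 to 1.23), 1.9-fold (limma adjusted p = 0.00416). IER2 was called in every alternative run (highest adjusted p 0.029). IER3 (IEX-1), a stress-responsive regulator of cell survival that can prolong ERK activity, went the other way. Its signal was bright, at 13.49, 13.51 and 13.45 in SUM44 and 12.91, 12.93 and 13.04 in LCCTam. Both groups were tight and clearly apart. The difference was -0.53 ± 0.10 (SE), 1.44-fold (limma adjusted p = 0.011), and it ranged from -0.57 to -0.50 over the alternatives. The IER3 call was lost, at adjusted p = 0.057, 0.0573, 0.0541 and 0.0632, without SUM44 replicate 1, 2 or 3 or LCCTam replicate 2.

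The IER2 promoter, on the plus strand at chr19:13150201-13150410, is shown for the member with the largest difference, marked as before.
IER2: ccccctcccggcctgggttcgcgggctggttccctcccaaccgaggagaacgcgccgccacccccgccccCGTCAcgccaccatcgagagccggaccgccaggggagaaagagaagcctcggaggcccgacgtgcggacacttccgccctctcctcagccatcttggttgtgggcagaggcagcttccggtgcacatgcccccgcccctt
It held 1 CRE core, 140 bases upstream, with neither a CArG box nor a TATAAA box in the 300 bases searched.

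Whether members of a family shifted to different degrees was examined within each array, by subtracting the level of 1 member from that of another, for the 10 pairs within the FOS, JUN and IER groups. The IER2 minus IER3 value was -3.89, -4.02 and -4.08 in SUM44 and -2.70, -2.51 and -2.43 in LCCTam, a change of 1.45. The balance of this pair thus differed by more than its spread. FOS minus FOSL2 changed by 0.79 and FOSB minus FOSL2 by 0.69, so FOSL2 was lower relative to both in LCCTam. JUN minus JUNB was 0.78, 0.93 and 0.84 in SUM44 and 0.49, 0.46 and 0.47 in LCCTam, a change of -0.37, or -0.65 with the mean of each gene's probe sets. In each of these 4 pairs the groups did not overlap (exact permutation test, two-sided, p = 0.10 before and 0.143 after adjustment over the 10 pairs). In total 7 pairs did not overlap, and 0.10 is the smallest p that 3 arrays against 3 allow. JUNB minus JUND changed by -0.05 (SD 0.25 in SUM44 and 0.20 in LCCTam, exact permutation p = 1.0).

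The LCCTam arrays did not carry the differences equally. Set against the mean of the SUM44 arrays, JUND was higher by 0.61, 0.91 and 1.23 in LCCTam replicates 1, 2 and 3, IER2 by 0.72, 0.94 and 1.12, and JUNB by 0.79, 0.73 and 1.08. FOSB stood at -0.03, 0.30 and 0.38, and FOS at 0.15, 0.36 and 0.45. In all of these replicate 3 stood highest. EGR1 was farthest from SUM44 in replicate 1 (-0.61) and nearest in replicate 3 (-0.22), while IER3 differed little between arrays (-0.58, -0.56 and -0.45). Over all genes, the median was -0.01, 0.09 and 0.16 in the same arrays. Poly-A spike-in controls averaged 6.80, 7.11 and 7.37 there and 6.82, 6.74 and 6.42 in SUM44 replicates 1, 2 and 3. The part of this shared shift in the members' values was not tested.

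Position is a feature that the choice of members did not use. JUNB, JUND, IER2 and FOSB lie on chromosome 19, FOS on 14, FOSL1 on 11, FOSL2 on 2, JUN on 1, EGR1 on 5 and IER3 on 6. The 3 members with the largest differences are thus all on chromosome 19. Of 810 genes measured on chromosome 19, 190 were called higher and 6 lower, and their median difference was 0.24, against 0.08 for all genes. By array that median was 0.08, 0.25 and 0.42 in LCCTam replicates 1, 2 and 3. Of the 20 measured genes nearest to IER2, 10 on each side, none had a larger difference (their median was 0.30). For JUNB 1 of 20 neighbours did (median 0.40) and for JUND 4 of 20 (median 0.17). Among these neighbours, 5 of 20 for IER2, 8 of 20 for JUNB and 4 of 20 for JUND were called higher. None of them was called lower. Of all genes, 9.18% were called higher and 6.6% lower. IER3 lay below all 20 of its neighbours, whose median was 0.20. FOSB, by contrast, lay below 16 of 20 neighbours (median 0.38), of which 8 of 20 were called higher and none lower. The neighbourhoods were examined after the members' values were seen, and their part in the members' differences was not tested.

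**Figure D3:**
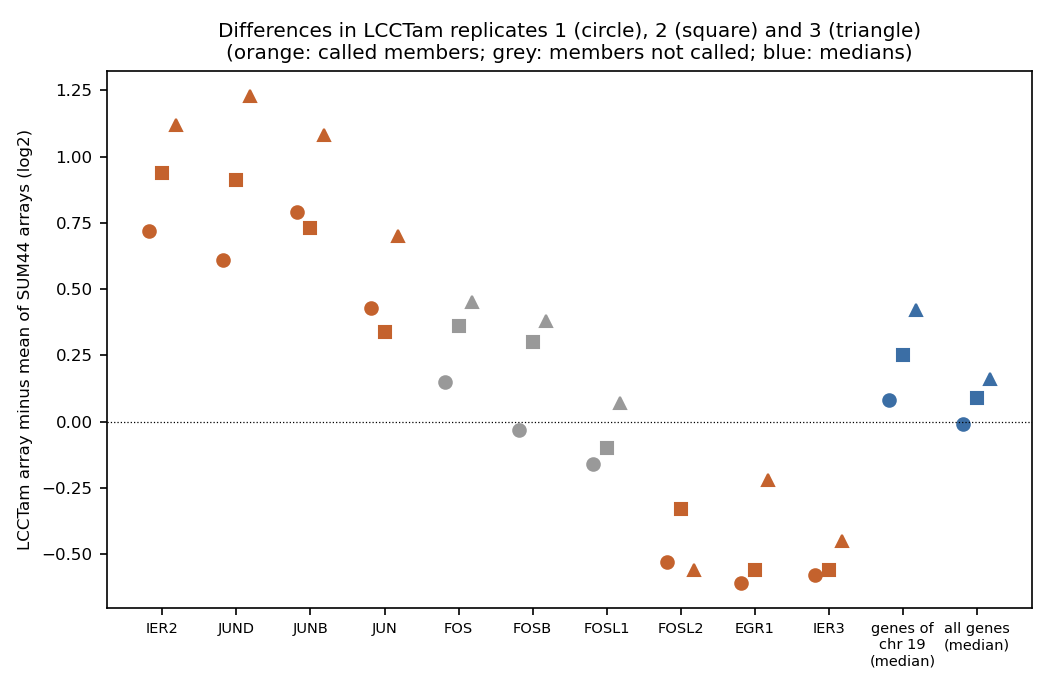
Each LCCTam array minus the mean of the SUM44 arrays on the log2 scale, for the 10 members and, in blue, as the median of 810 genes on chromosome 19 and of all 11963 genes. JUNB, JUND and IER2 lie at 0.61 or more in every LCCTam array, while the chromosome 19 median runs from 0.08 to 0.42.

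Profiles most like those of the pair with the largest differences were sought among all genes, by the root mean square distance between gene-centred log2 values over the 6 arrays. For IER2 these were EXOSC5 (0.0302), USP18 (0.0515) and PIH1D1 (0.0549). EXOSC5, a subunit of the RNA exosome, was at 7.92, 7.82 and 7.70 in SUM44 and 8.48, 8.68 and 8.93 in LCCTam. For JUND they were TLE5 (0.0388), ASCC2 (0.0398) and KLHL26 (0.0508). None of the 6 is an immediate early gene of the lists used here, and 4 of them lie on chromosome 19 and 2 on chromosome 22.

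Promoter sequences of 8 members were matched in the RefSeq table, and those of FOSL1 and IER3 were not. In the 300 bases from 250 before to 50 after the start site, searched on both strands, TGACG was present in 8 of 8. It was present in 24.6% of all 35116 promoters of that length in the table, and in 32.9% of those within the members' range of GC content (62.0% to 77.0%). The full CRE TGACGTCA, which contains it, was found in JUND alone (1.85% of all promoters and 2.96% of those in that GC range), and the AP-1 site TGACTCA in FOSL2 alone (4.95% and 2.35%). The variant TGACATCA was found in JUN alone, 67 bases upstream (2.61% and 0.873%). A CArG box was found in EGR1 alone (1.29% and 0.777%). TATAAA was found in FOS, FOSB and JUNB (11.5% and 2.66%), and GCGTGGGCG, the site of EGR1, in none of the 8 (0.795% and 1.43%). As all 8 promoters held a CRE core, its presence could not separate members that were higher from those that were lower. A match describes the letters only.

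**Figure D4:**
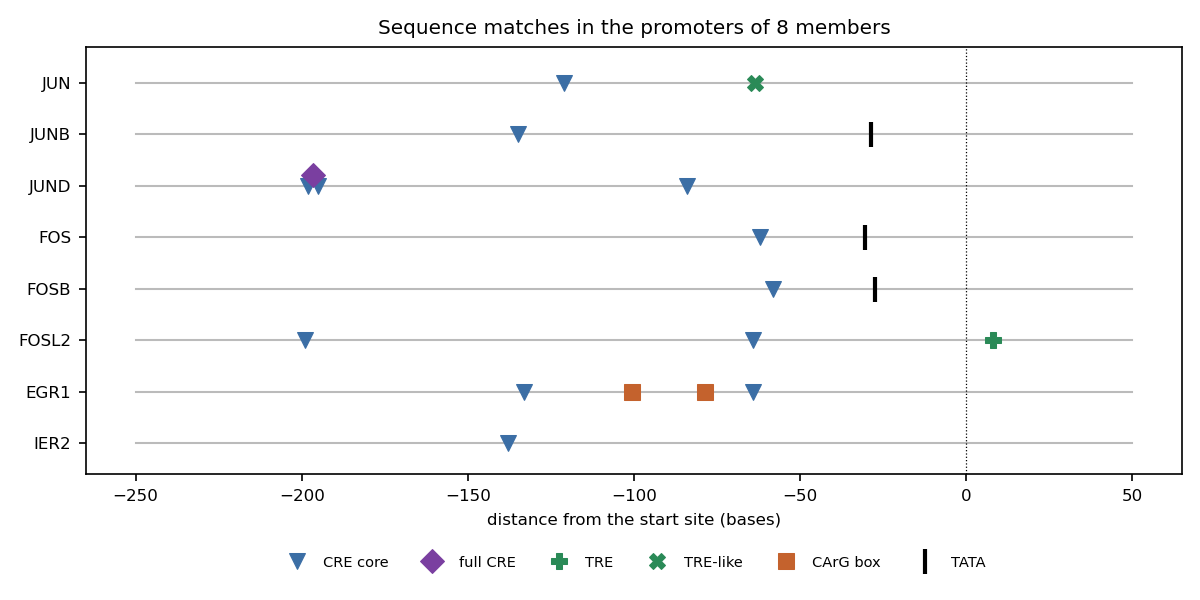
Matches in the promoters of 8 members, by distance in bases from the start site (dotted line), each grey line spanning 250 bases before to 50 after it. The CRE core is found in all 8 promoters, and CArG boxes (105 and 83 bases upstream) in that of EGR1 alone.

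A wider list of immediate early genes gave a share of calls nearer to the background. Among the 30 measured there were 7 calls higher and 1 lower, so 26.7% were called against 15.8% of all genes, and 24 of 30 differences were positive (80% against 63% of all genes). The median was 0.20. ATF3, a stress-induced leucine zipper protein that pairs with JUN, was at 6.42, 7.01 and 6.51 in SUM44 and 8.46, 8.39 and 8.67 in LCCTam, 3.63-fold higher (limma adjusted p = 0.00067). MYC was at 7.22, 7.35 and 7.18 in SUM44 and 8.92, 8.96 and 8.92 in LCCTam, 3.22-fold higher (limma adjusted p = 9.34e-05). Both differed by more than any of the 10 members. GADD45A, a growth arrest gene, was 2.01-fold higher (limma adjusted p = 0.00721). SGK1, a kinase induced by serum and glucocorticoids, was lower by -0.53 at a dim level, and its call was lost without SUM44 replicate 1, 2 or 3 (adjusted p = 0.0905, 0.0671 and 0.0661).

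Other leucine zipper factors that pair with or resemble AP-1 subunits split. Among the 18 measured there were 4 calls higher and 2 lower (33.3% called, median 0.09). ATF4, the main factor of the integrated stress response, was at 10.58, 10.89 and 10.87 in SUM44 and 12.45, 12.42 and 12.64 in LCCTam, 3.3-fold higher (limma adjusted p = 0.000229). DDIT3 (CHOP), its target, was 1.85-fold higher (limma adjusted p = 0.00462), and ATF5 1.82-fold (limma adjusted p = 0.00926, and 0.0502 without SUM44 replicate 1), though 2 dimmer probe sets of ATF5 (0.80 and 0.29) were not called. ATF2, the usual partner of JUN at the CRE, was at 7.98, 7.56 and 7.81 in SUM44 and 7.46, 6.61 and 6.47 in LCCTam (-0.94, limma adjusted p = 0.0496), and CREB1 differed by -0.79 (limma adjusted p = 0.0469). LCCTam replicate 1 lay close to SUM44 for both. When SUM44 replicate 1, 2 or 3 or LCCTam replicate 2 or 3 was left out, the adjusted p was 0.177, 0.0931, 0.154, 0.179 and 0.0949 for ATF2 and 0.162, 0.106, 0.151, 0.172 and 0.0856 for CREB1. Without LCCTam replicate 1 both were called, ATF2 at -1.24 (limma adjusted p = 0.000327) and CREB1 at -1.05 (limma adjusted p = 0.000317). That run called 4241 of all 11963 genes. Among all probe sets, a dimmer one of ATF2 gave -1.16 (limma adjusted p = 0.0374, and 0.0555 for the brightest). Dimmer probe sets of CREB1 gave -0.68, -0.60 and -0.36 (limma adjusted p = 0.0361, 0.101 and 0.0562, and 0.0523 for the brightest).

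Target genes of AP-1 were called about as often as all genes. Among the 24 measured there was 1 call higher and 3 lower (16.7% called, median 0.03). HMOX1, heme oxygenase, was at 9.53, 9.79 and 9.97 in SUM44 and 6.64, 7.24 and 7.53 in LCCTam, 6.17-fold lower (limma adjusted p = 0.000541). TIMP1, an inhibitor of matrix metalloproteinases, was 2.21-fold lower (limma adjusted p = 0.002). CD44, the hyaluronan receptor, was 1.65-fold lower (limma adjusted p = 0.0171, lost when SUM44 replicate 2 or 3 or LCCTam replicate 2 was left out, at 0.0511, 0.0647 and 0.0787). Its further probe sets were all lower, from -1.50 to -0.11. Some were called (lowest limma adjusted p 0.00946 among all probe sets) and others were not (highest 0.545). VEGFA, the vascular growth factor, was 1.5-fold higher (limma adjusted p = 0.0414), but its 3 dimmer probe sets gave 0.33 to 0.37 and were not called. The VEGFA call was lost without SUM44 replicate 1, 2 or 3 or LCCTam replicate 2 or 3 (adjusted p = 0.0977, 0.0624, 0.112, 0.105 and 0.0647).

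Kinases and factors upstream of the immediate early genes showed few differences with all 6 arrays. Among the 22 measured, 1 was called lower and none higher by limma (4.55% called, median 0.05). An unadjusted p under 0.05 was found for 4 of the 22, 2 of them higher. Of all 11963 genes 3753 had such a p, 2068 of them higher. MAP2K4, which activates the JUN kinases, was at 7.86, 7.36 and 7.75 in SUM44 and 7.10, 6.81 and 6.56 in LCCTam. Its groups did not overlap, with a difference of -0.83 (limma adjusted p = 0.0224), lost without SUM44 replicate 1 or 3 or LCCTam replicate 2 (adjusted p = 0.0963, 0.0979 and 0.0912). A second probe set of MAP2K4 gave -1.13 (adjusted p = 0.0197 among all probe sets). Without LCCTam replicate 1, 9 of the 22 were called, but so were 4241 of all 11963 genes. Whether the list differed from all genes in that run was not tested.

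**Figure D5:**
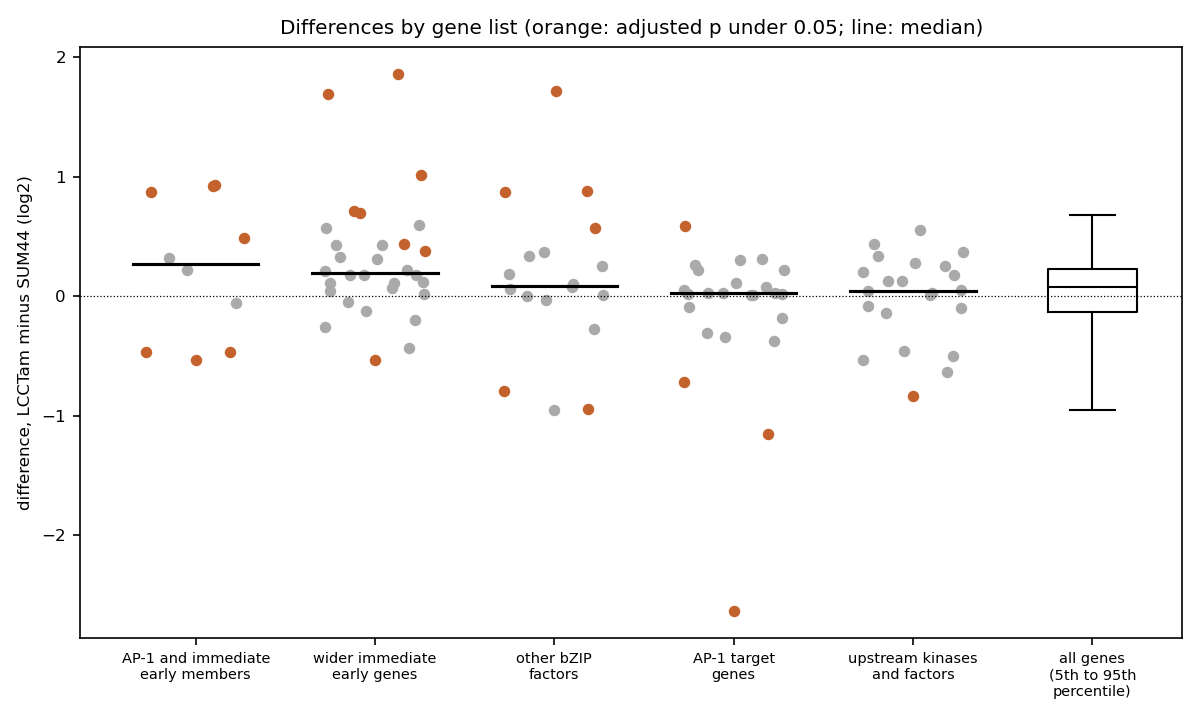
Difference of each gene, LCCTam minus SUM44 on the log2 scale, for the 10 members and 4 wider lists, with called genes in orange and the median as a line; the box at the right gives the quartiles of all genes and its whiskers the 5th and 95th percentiles. ATF3, MYC and ATF4 stand at 1.69 or more, HMOX1 at -2.63, and the list medians run from 0.03 to 0.27.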

How the data were processed

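The deposited values are log2 expression levels made by the authors with RMA, which corrects background, quantile-normalises arrays and summarises probe sets, per the submitters' processing notes and the series' design text. Its version is not given in the sources used here. Equalising the distributions hides changes in total RNA per cell. No detection calls were used. The table held 22283 probe sets, 68 of them controls. Probe sets annotated to 1 gene (19065) were named through the RefSeq gene table of GRCh38.p14 by gene ID, and no probe set of several genes included a member. The brightest probe set on average stood for a gene. Groups, taken from the sample titles, were compared in R 4.3.3 with limma 3.58.1 (lmFit, then eBayes), two-sided, with Benjamini-Hochberg adjustment over 11963 genes, or over 22215 probe sets for further probe sets. In data simulated for this comparison with 11963 genes, the fit recovered 28.8% of 1.5-fold, 70.3% of 2-fold and 93.8% of 4-fold changes, and 4.87% of calls were false. The simulation gave each gene independent noise and changed 200 genes per run, where 1888 were called in the data. Its shares may therefore not hold for arrays in which many genes shift together. Pairs were tested by exact permutation (scipy 1.17.1).

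The members and lists were chosen with earlier results of these data known. All members are named. From each list, called genes were named in full up to 5, and otherwise the 3 largest in each direction. List genes that are not in the table used are not analysed here. Alternatives were every probe set as a unit, the mean of probe sets, array weights, robust fitting with an intensity trend, median centring, cyclic loess, 2 filters on dim genes, a block for the replicate number, leaving out each array, and an adjusted p under 0.01. Only 3 arrays per group limit the precision.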

Additional observations from a re-analysis of the deposited data

How the results depend on the processing

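JUNB and IER2 were called under all 16 alternatives run, and no member changed sign under any it was tested in. Of the other values of members under alternatives, 30 lost a call and 3 gained one. With an adjusted p under 0.01, 723 genes were called in all, with 2 members higher and 0 lower in limma. Before adjustment 3 members were lower at p under 0.05 in limma, as were 1685 of all 11963 genes. The calls at 0.01 held 3, 3, 2 and 0 genes of the wider immediate early, leucine zipper, target and upstream lists. Array weights gave 7021 genes in all and 20, 14, 13 and 11 in these lists. With every probe set as a unit 3002 were called.

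Leaving out 1 array gave 751 to 4241 genes called in all, 2 to 5 members higher and 0 to 3 lower. The lists then had 3 to 12, 2 to 9, 2 to 6 and 0 to 9 called genes. No member was called lower without SUM44 replicate 1, 2 or 3 or LCCTam replicate 2, although 3 had an unadjusted p under 0.05 each time in limma. How many of all genes had such a p in these runs was not counted. The 4241 came without LCCTam replicate 1. The change of JUNB minus JUND, -0.05 with all arrays, was 0.01 without SUM44 replicate 1, 0.03 without SUM44 replicate 2 and 0.01 without LCCTam replicate 2. Apart from this pair, among members, pairs and further probe sets, a sign changed only at further probe sets that were never called. The third brightest of JUN gave -0.03 after cyclic loess and -0.02 to 0.12 with an array left out, the dimmest of JUN -7.3e-05 to 0.16 with an array left out, and the dimmer of EGR1 -0.01 after cyclic loess and -0.01 to 0.15 with an array left out. The cause was not tested.

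With the replicate number as a block, 2152 genes were called, 3 members higher and 2 lower, and 2 upstream genes. JUN (adjusted p = 0.0526) and EGR1 (0.0565) lost their calls. Deviations of same-numbered arrays correlated at 0.49, 0.35 and -0.05 for replicates 1, 2 and 3. With 3 arrays per group this cannot decide whether they share more than a number, and the labels do not say.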
